A study of Homo sapiens with 6 samples.

Results

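The genes described here encode nuclear subunits of respiratory complexes II, III, IV and V of the mitochondrial inner membrane. They were taken as array rows with a single gene symbol that is SDHA, SDHB, SDHC, SDHD or CYC1 or that starts with UQCR, COX4, COX5, COX6, COX7, COX8, ATP5F, ATP5M or ATP5P. This gave 34 genes, 1 row each, of 12448 genes with such a row. Complex II had 2 of them, complex III 6, complex IV 14 and complex V 12. SDHB and SDHD are not analysed here, and neither are 11 rows that share a symbol of the rule with another gene. Members named on such shared rows include SDHC (with ABCC8), ATP5PF (with GABPA) and ATP5PO (with DONSON), and those rows were not used. Rows with a mean of at least 5.03 log2 over the samples, the 25th percentile of all row means, were kept for the comparisons. Of the 34 genes, 29 passed (2 of complex II, 6 of complex III, 11 of complex IV and 10 of complex V), within 11619 kept rows of 15492.

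RNA levels came from Affymetrix whole-transcript arrays. The cells were 3 lines made from HEK293, which was established from human embryonic kidney. One line carries a tet-on inducible fusion of ubiquitin to APE1 (ubAPE1), one an inducible wild-type APE1 (wtAPE1), and one the empty pcDNA-FRT vector. Each was sampled with doxycycline (dox+), the drug that switches on the transgene, given for 16 h at 2 µg per ml, and without it (dox-). The medium of all 3 lines held 1 µg per ml of puromycin. Each of the 6 groups is 1 column, the authors' average of 3 biological replicates, so the spread between replicates is not in these values, and the number of columns limits the precision throughout. Whether a line is 1 clone is not stated in the labels.

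As a label check, APEX1, which encodes APE1, was examined. Its dox+ level exceeded its dox- level 1.89-fold in the ubAPE1 line and 2.13-fold in the wtAPE1 line, against 1.14-fold in the vector line. Of 9 kidney and epithelial markers 8 passed the row filter, against 2 of 6 blood markers. The median kept row lay between 6.56 and 6.81 log2 in the 6 columns. Levels are therefore given as log2 above the median kept row of the same sample, and every difference is the difference of these levels. The shift removed in this way was -0.17 log2 for dox+ minus dox- in the ubAPE1 line, 0.08 in the wtAPE1 line and -0.06 in the vector line.

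Complex II, succinate dehydrogenase, belongs both to the citric acid cycle and to the respiratory chain and passes electrons from succinate to ubiquinone. Complex III passes them on to cytochrome c, and complex IV, cytochrome c oxidase, passes them to oxygen. Both pump protons, and complex V, the ATP synthase, uses the proton gradient to make ATP. Complex II is encoded in the nucleus alone, whereas complexes III, IV and V also hold subunits of the mitochondrial genome, and most of their nuclear subunits are small proteins. The transcription factors NRF1, GABP and YY1 are known for binding the promoters of many nuclear respiratory genes.

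Promoters of SDHA, UQCRQ, COX5B and ATP5PF are printed because the comparisons below turn on these genes, which were chosen after their values were seen. Each covers 250 bases before to 50 bases after the RefSeq start in GRCh38.p14, 5′ to 3′ on the gene's strand. Capitals mark matches to GCGCATGCG (NRF1), CCGGAAG (GABP) or AAGATGGC (YY1), each searched on both strands. The windows are chr5:218070-218369 on the plus strand for SDHA, chr5:132866392-132866691 plus for UQCRQ, chr2:97645812-97646111 plus for COX5B and chr21:25735005-25735304 minus for ATP5PF.
SDHA: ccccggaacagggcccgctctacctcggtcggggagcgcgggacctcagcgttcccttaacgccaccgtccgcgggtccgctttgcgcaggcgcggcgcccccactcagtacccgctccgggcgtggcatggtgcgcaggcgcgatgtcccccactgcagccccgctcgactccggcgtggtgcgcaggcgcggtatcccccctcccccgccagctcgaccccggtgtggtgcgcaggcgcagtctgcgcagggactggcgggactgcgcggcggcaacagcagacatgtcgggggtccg
UQCRQ: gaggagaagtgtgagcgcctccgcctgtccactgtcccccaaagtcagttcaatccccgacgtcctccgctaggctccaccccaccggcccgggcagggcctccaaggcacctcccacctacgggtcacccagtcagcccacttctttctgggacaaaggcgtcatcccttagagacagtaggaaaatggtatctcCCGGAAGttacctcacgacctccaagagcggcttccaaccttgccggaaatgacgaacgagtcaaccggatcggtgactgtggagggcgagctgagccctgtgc
COX5B: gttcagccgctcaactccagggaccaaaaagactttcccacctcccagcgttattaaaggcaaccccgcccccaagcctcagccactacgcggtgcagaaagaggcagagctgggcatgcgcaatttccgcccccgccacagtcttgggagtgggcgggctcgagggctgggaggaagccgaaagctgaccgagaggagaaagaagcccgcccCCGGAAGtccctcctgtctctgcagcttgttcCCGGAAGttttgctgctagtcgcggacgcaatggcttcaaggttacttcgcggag
ATP5PF: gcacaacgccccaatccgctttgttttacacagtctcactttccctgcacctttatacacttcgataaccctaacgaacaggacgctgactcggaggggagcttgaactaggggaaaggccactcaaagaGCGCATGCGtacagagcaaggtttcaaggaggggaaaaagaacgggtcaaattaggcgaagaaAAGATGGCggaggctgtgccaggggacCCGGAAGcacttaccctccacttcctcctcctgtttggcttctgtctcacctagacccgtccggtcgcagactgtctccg
The ATP5PF window held one match to each motif, the first bases lying at -120 (NRF1), -57 (YY1) and -30 (GABP) from the start. GABP matches lay at -54 in the UQCRQ window and at -37 and -5 in the COX5B window, and the SDHA window held no match to these letters. Of the 34 genes, 26 had a promoter in the table. The NRF1 letters were in 3 of these 26 (11.5%), against 1.92% of all 35116 promoters in the table. The GABP letters were in 8 (30.8%), against 10.3% of all promoters, and the YY1 letters in 4 (15.4%), against 2.89%. The promoters of the whole table were not limited to array genes or reduced to a single promoter per gene. These shares are therefore not like for like. At least one motif was found in 13 of the 26. A match is a description of the sequence and not a measured binding site.

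Complex II stood lower in both APE1 lines than in the vector line. SDHA, the flavoprotein that holds the succinate site, had a dox+ level of 2.79 log2 in the ubAPE1 line and 2.93 in the wtAPE1 line, against 3.82 in the vector line. Its dox- levels were 3.04, 2.74 and 3.63 log2 in the same order of lines. The 4 samples of the APE1 lines all lay below both vector samples, with a gap between the groups wider than the spread within either. Over both doxycycline states, SDHA was lower by 0.81 ± 0.18 log2 (SE) in the ubAPE1 line, or 1.75-fold (limma adjusted p = 3.49e-04), and 0.89 ± 0.18 log2 lower in the wtAPE1 line, or 1.85-fold (limma adjusted p = 4.26e-05). This additive fit has terms for line and doxycycline, and its 2 doxycycline states stand in for replicates of a line. Because 1 spread is shared by all rows, the SE of 0.18 log2 is the same for every row and is not a gene's own. For the same reason the p-values of the fit follow the size of a difference. They measure neither how even that difference was nor the spread between cultures.

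SDHC, a membrane anchor of complex II that holds haem and binds ubiquinone, was less even. Its dox+ level was -0.63 log2 in the ubAPE1 line and 0.12 in the wtAPE1 line, against 0.53 in the vector line. Its dox- levels were 0.42, -0.40 and 0.56 log2 in the same order. All 4 samples of the APE1 lines again lay below the vector samples, but the ubAPE1 dox- sample only by 0.14 log2 from its vector counterpart, against 1.15 log2 for the dox+ pair. SDHC was lower by 0.65 ± 0.18 log2 in the ubAPE1 line (limma adjusted p = 0.00963) and 0.68 ± 0.18 log2 lower in the wtAPE1 line (limma adjusted p = 0.00475). With the values as deposited the adjusted p was 0.472 for ubAPE1 and 0.269 for wtAPE1, with the length trend described below removed it was 0.110 and 0.0858, and without the row filter 0.0992 and 0.0531. With quantile normalization the ubAPE1 call was lost as well (0.0758), while the wtAPE1 call was kept (0.0469). SDHA stayed past the threshold in the wtAPE1 line in every setting run, and in the ubAPE1 line in every setting but the values as deposited (adjusted p = 0.0711).

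Over all kept rows, 3.55% were lower and 1.08% higher in the ubAPE1 line, and the complex II genes were 2 of 29 members lower and 0 higher there. For the wtAPE1 line, 4.03% of rows were lower and 1.62% higher, against 2 lower and 2 higher members. The 2 higher members belong to complex IV. COX7A1, the heart and muscle form of subunit 7a, had a dox+ level of -0.65 log2 in the wtAPE1 line, against -1.24 in the vector line, and dox- levels of -0.66 and -1.22. It was higher by 0.57 ± 0.18 log2, or 1.49-fold (limma adjusted p = 0.0291). In the ubAPE1 line COX7A1 had -0.74 log2 with and -0.97 without doxycycline, a difference from the vector line of 0.38 ± 0.18 (adjusted p = 0.304). COX7B, a small accessory subunit, had a dox+ level of 3.79 log2 in the wtAPE1 line, against 3.06 in the vector line, and dox- levels of 4.05 and 3.64. It was higher by 0.57 ± 0.18 log2 (limma adjusted p = 0.0301), while its ubAPE1 levels of 3.80 with and 3.44 without doxycycline gave a difference of 0.27 ± 0.18 (adjusted p = 0.562). Both calls were lost without the row filter (adjusted p = 0.0542 for COX7A1 and 0.0877 for COX7B), with the values as deposited (0.238 and 0.362) and with the length trend removed (0.204 and 0.178). With quantile normalization the COX7A1 call was lost (0.0584) and the COX7B call kept (0.0452), and the row of COX7A1 was not kept by a stricter filter, at the 50th percentile.

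**Figure D1:**
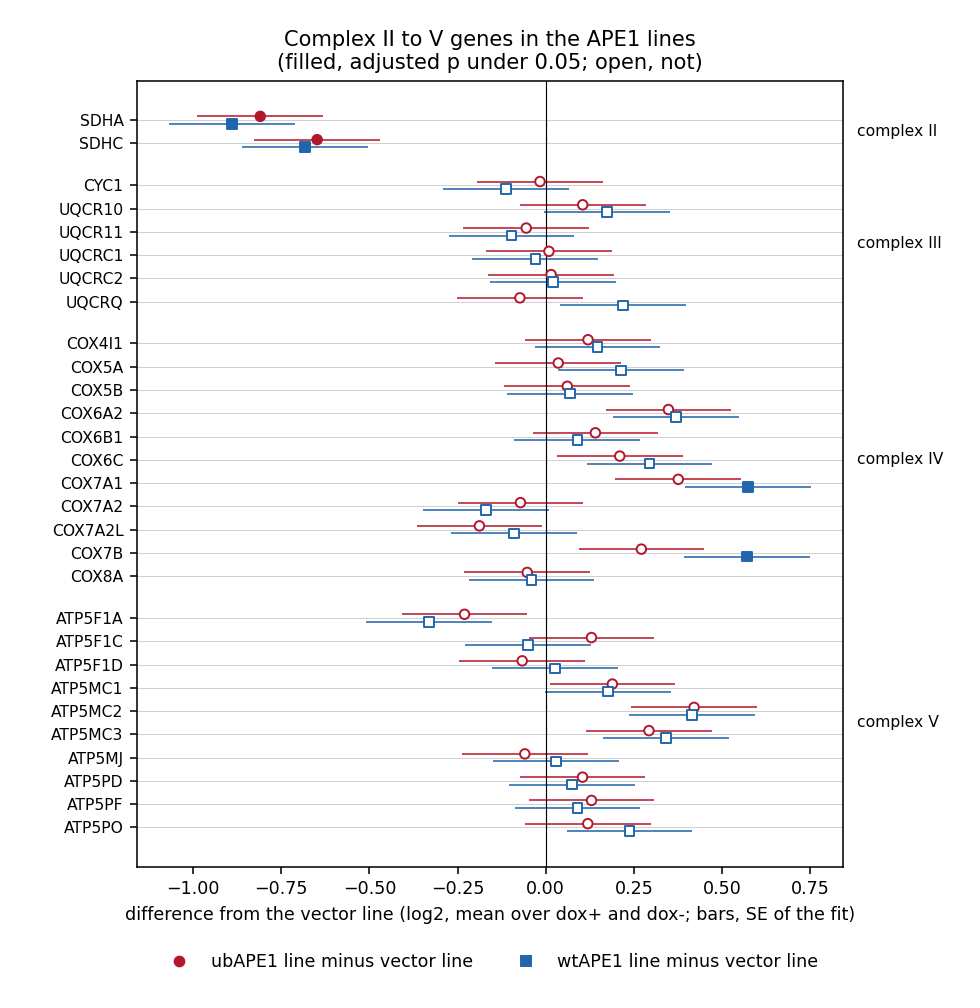
Difference of the ubAPE1 and wtAPE1 lines from the vector line in log2, averaged over dox+ and dox-, for the 29 genes of complexes II to V that passed the row filter (points, estimate of the additive fit; bars, its SE; filled where adjusted p is under 0.05). SDHA (-0.81 in ubAPE1, -0.89 in wtAPE1) and SDHC (-0.65, -0.68) are filled for both lines, and COX7A1 and COX7B for the wtAPE1 line alone.

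The other 25 members passed in neither line. Those of complex III lay between -0.11 (CYC1, cytochrome c1, in the wtAPE1 line) and 0.22 log2 (UQCRQ, wtAPE1). In complex V the range ran from -0.33 for ATP5F1A, the alpha subunit of the catalytic head, to 0.42 for ATP5MC2, a gene of the membrane ring, and each lay close to this value in the other APE1 line (-0.23 for ATP5F1A in ubAPE1 and 0.41 for ATP5MC2 in wtAPE1). At an unadjusted limma p under 0.05 there were 4 of 29 members in the ubAPE1 contrast, against 1581 of 11619 kept rows. The wtAPE1 contrast had 6 of 29, against 2385 of 11619, so both counts lay near the share of all rows. Between the APE1 lines themselves 0 members passed in limma, 0 had an unadjusted p under 0.05, and 0.00861% of all rows passed (1 row, with 105 rows at an unadjusted p under 0.05). The members' differences there, averaged over dox- and dox+, ran from -0.30 log2 (COX7B) to 0.18 (ATP5F1C, the central stalk of complex V). This average hides opposite signs. For ubAPE1 minus wtAPE1, 23 of 29 members lay below 0 without doxycycline (median -0.23 log2, 6 above). With doxycycline 22 lay above 0 (median 0.14 log2, 7 below). The medians over all kept rows were -0.02 and 0.01 log2. SDHC went the other way, at 0.82 without and -0.75 log2 with doxycycline. These differences of single columns were not tested.

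Other genes also separated the vector line from both APE1 lines. EPCAM, KRT19 and LRP2, 3 of the 8 kept kidney and epithelial markers, were lower in the ubAPE1 and the wtAPE1 line by limma, and 0 of the 8 were higher. The widest difference was that of EPCAM (-2.95 log2 in ubAPE1 and -2.98 in wtAPE1). In both lines 4 of the 8 lay above 0 without passing, among them the kidney transcription factors PAX8 (0.28 in ubAPE1 and 0.48 in wtAPE1) and PAX2 (0.21 and 0.34), while KRT18 lay at -0.38 and -0.40. The mean deposited level over the 9 markers, in columns not centred, was 6.30 and 6.22 log2 in ubAPE1 samples (dox+, dox-) and 6.24 and 6.28 in wtAPE1 samples, against 6.93 and 6.88 in vector samples. Of 3 kept neuronal markers, ENO2 and NEFL were also lower in both APE1 lines and SYP was higher in the ubAPE1 line, with a mean over 5 neuronal rows of 5.51 to 5.67 log2 in the 4 APE1 samples, against 6.08 and 6.11 in the vector samples. COL3A1, 1 of 3 kept fibroblast markers, was higher by 0.64 log2 in the ubAPE1 line and 0.74 in the wtAPE1 line, and 0 of 2 kept blood markers passed. Their part in the complex II differences was not tested. In such bulk samples, fewer cells of a type and less RNA per cell cannot be told apart.

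One effect of doxycycline shared by the 3 lines passed among the members, that of COX7A2, the widely expressed form of subunit 7a of complex IV. Its dox+ level was 2.02 log2 in the ubAPE1 line, 1.60 in the wtAPE1 line and 2.12 in the vector line, against dox- levels of 2.52, 2.74 and 2.55. All 3 dox+ samples lay below all 3 dox- samples. The response averaged -0.69 ± 0.39 log2 (SD, n = 3 lines), or 1.61-fold lower, with an SE of 0.15 in the additive fit (limma adjusted p = 0.00346). Among all kept rows 0.0775% passed in either direction, against 1 of 29 members. The call was lost without the wtAPE1 line, where the response was largest (-0.46 log2, adjusted p = 1.00), without the vector line (adjusted p = 0.0594) and with the length trend removed (0.127). With the values as deposited the adjusted p was 1.0, with quantile normalization 0.0568 and without a line term 1.00.

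UQCRQ, a small subunit beside cytochrome b in complex III, had the next largest mean response. It had dox+ levels of 2.10 log2 in the ubAPE1 line, 1.85 in the wtAPE1 line and 1.86 in the vector line, against dox- levels of 1.97, 2.80 and 2.35. The wtAPE1 and vector lines were lower with doxycycline and the ubAPE1 line was slightly higher. The mean of -0.43 ± 0.54 log2 (SD, n = 3 lines) did not pass (limma adjusted p = 0.612). Without the ubAPE1 line UQCRQ passed together with COX7A2 (adjusted p = 0.0111). For the remaining 27 members the common effect lay between -0.27 (ATP5MJ) and 0.19 log2 (ATP5MC2).

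**Figure D2:**
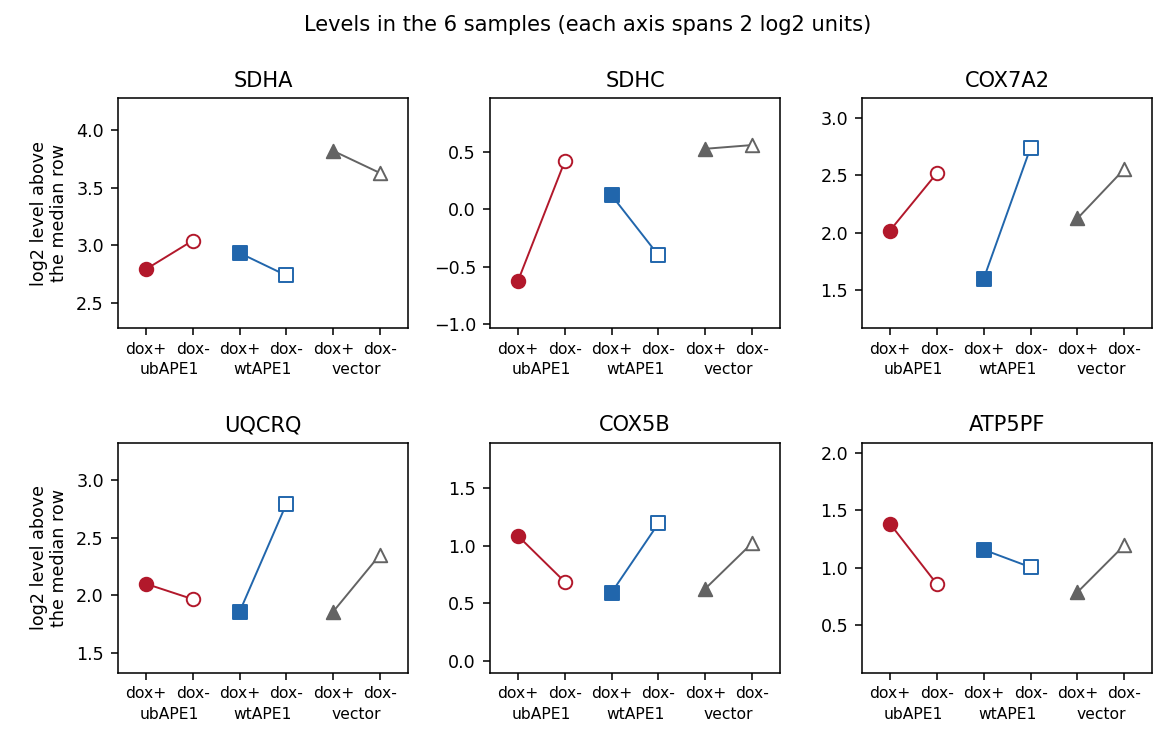
Level of 6 genes in the 6 samples, in log2 above the median row of the sample, with dox+ (filled) left of dox- (open) in the ubAPE1, wtAPE1 and vector lines. Each panel spans 2 log2 units. SDHA and SDHC lie lower in the APE1 lines, COX7A2 lies lower with doxycycline in each line, and COX5B and ATP5PF go opposite ways in the ubAPE1 and vector lines.

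Within single lines the members of complexes IV and V mostly lay above 0 in the ubAPE1 line, while those of complex III were split, with 3 above and 3 below. In the other lines the members of these 3 complexes mostly lay below 0. The response, dox+ minus dox-, had a median over the 29 members of 0.13 log2 in the ubAPE1 line (20 above 0), -0.14 in the wtAPE1 line (22 below 0) and -0.19 in the vector line (21 below 0). The medians over all kept rows were 0.04, -0.01 and 0.02 log2, with 54.6% above 0 in the ubAPE1 line, and 52.3% and 46.1% below 0 in the wtAPE1 and vector lines. As deposited, with the columns not centred, the members' ubAPE1 median was -0.033 log2, below 0. These responses compare single columns, so they carry no test, and members are counted where they differed at least 1.5-fold.

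In the ubAPE1 line 1 member was at least 1.5-fold higher and 1 lower, against 1.71% and 2.75% of all kept rows. COX6A2, the heart and muscle form of subunit 6a, had 0.04 log2 with and -0.62 without doxycycline, or 1.58-fold higher. SDHC was 2.06-fold lower, from the levels given above. As deposited both members past 1.5-fold were lower (COX7A2 and SDHC), and COX6A2 was no longer among them with the length trend removed.

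In the wtAPE1 line 0 members were at least 1.5-fold higher and 3 lower, against 0.448% and 0.482% of rows. COX7A2 was 2.21-fold lower and UQCRQ 1.92-fold lower. COX5B, a zinc-binding subunit of complex IV, was 1.52-fold lower there, with 0.59 log2 with and 1.19 without doxycycline. As deposited the split was 1 higher (SDHC) and 2 lower, without COX5B.

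In the vector line 0 members were past 1.5-fold in either direction, against 0.379% of rows higher and 0.516% lower. COX7B (-0.58), COX8A (-0.57), UQCR10 (-0.53) and COX6B1 (-0.51) came closest. As deposited 3 of these were past 1.5-fold, all lower (COX7B, COX8A and UQCR10).

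**Figure D3:**
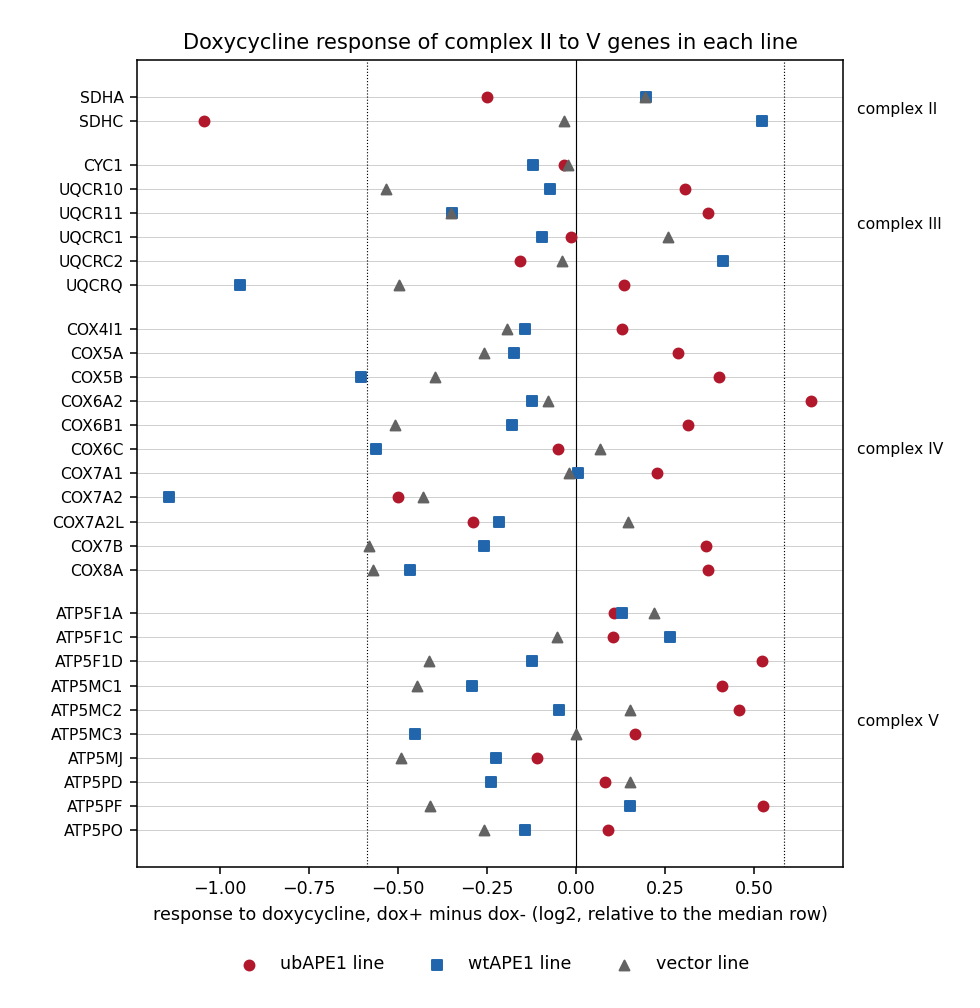
Response to doxycycline (dox+ minus dox-, log2, relative to the median row) of 29 complex II to V genes in the ubAPE1 line (circles), the wtAPE1 line (squares) and the vector line (triangles), with dotted lines at 1.5-fold. Most ubAPE1 circles of complexes IV and V lie right of 0 while SDHA (-0.25) and SDHC (-1.04) lie left of it, and most squares and triangles lie left of 0.

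The complexes differed in this pattern. Complex II ran the other way, with SDHA at -0.25 log2 in the ubAPE1 line, 0.20 in the wtAPE1 line and 0.19 in the vector line, and SDHC at -1.04, 0.52 and -0.03. UQCRC2 of complex III, at -0.16, 0.41 and -0.04 log2, had the same signs as SDHC, so these signs were not particular to complex II. Complex III had medians of 0.06, -0.11 and -0.19 log2 in the ubAPE1, wtAPE1 and vector lines. Its larger subunits CYC1, UQCRC1 and UQCRC2 (cytochrome c1 and the core proteins) lay between -0.16 and -0.01 log2 in the ubAPE1 line, while the small subunits UQCR10 (0.31), UQCR11 (0.37) and UQCRQ (0.13) lay above 0.

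Complex IV had medians of 0.29, -0.22 and -0.26 log2 in the same order of lines. In the ubAPE1 line 8 of its 11 members lay above 0, and the others were COX6C (-0.05), COX7A2 (-0.50) and the supercomplex factor COX7A2L (-0.29). In the wtAPE1 line 10 of 11 lay below 0. COX5B had 1.09 log2 with and 0.69 without doxycycline in the ubAPE1 line, against 0.63 and 1.02 in the vector line. COX4I1 and COX5A, nuclear subunits of the complex, had responses of 0.13 and 0.29 log2 in the ubAPE1 line, -0.14 and -0.17 for wtAPE1, against -0.19 and -0.26 for the vector.

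Complex V had medians of 0.14, -0.13 and -0.15 log2, with 9 of 10 members above 0 in the ubAPE1 line. ATP5PF, the coupling factor F6 of the peripheral stalk, had 1.38 log2 with and 0.86 without doxycycline in the ubAPE1 line. It had 1.16 and 1.00 for wtAPE1 cells, against 0.79 and 1.20 for vector cells, so the dox+ level was lower in the vector line alone. ATP5F1D, the delta subunit of the central stalk, had 2.09 and 1.57 log2 in the ubAPE1 line. Its levels were 1.86 and 1.99 for wtAPE1 cells, against 1.69 and 2.10 for vector cells. The genes ATP5MC1, ATP5MC2 and ATP5MC3, which encode the same mature c subunit of the ring, had ubAPE1 responses of 0.41, 0.46 and 0.17 log2. The same genes had -0.29, -0.05 and -0.45 for wtAPE1, against -0.45, 0.15 and 0.00 for the vector. ATP5F1A of the head (0.11, 0.13, 0.22) and ATP5F1C of the central stalk (0.10, 0.26, -0.05) had small responses in the 3 lines, as did the stalk subunits ATP5PD (0.08, -0.24, 0.15) and ATP5PO (0.09, -0.14, -0.26).

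Responses were also compared between lines. Each such difference rests on 4 single columns of lines that also differed without doxycycline, so it carries no test and cannot be assigned to the induced protein. The ubAPE1 response exceeded the vector response at least 1.5-fold for 11 of 29 members (37.9%), against 4.64% of all kept rows, and was that much lower for 1 (SDHC, -1.01 log2), against 8.31%. The 11 were UQCR10, UQCR11 and UQCRQ of complex III, COX5B, COX6A2, COX6B1, COX7B and COX8A of complex IV, and ATP5F1D, ATP5MC1 and ATP5PF of complex V. Among the largest were COX7B (0.95 log2), COX8A (0.94), ATP5F1D (0.93) and ATP5PF (0.93). Against the wtAPE1 response, the ubAPE1 response was higher for 10 members (34.5%), against 5.78% of rows, and lower for 1 (SDHC, -1.57), against 6.15%. UQCRQ (1.08 log2) and COX5B (1.002) were the highest. The comparisons share the ubAPE1 samples, so their counts are not separate evidence. As deposited the split against wtAPE1 was 3 higher (COX5B, COX8A and UQCRQ) and 3 lower (SDHA, SDHC and UQCRC2), since the median row differed by -0.25 log2 between these responses.

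The wtAPE1 response differed less from the vector response, with 0 members at least 1.5-fold higher, against 2.09% of rows, and 2 lower, COX7A2 (-0.71 log2) and COX6C (-0.63), against 1.82%. As deposited 4 members were higher (ATP5PF, SDHC, UQCR10 and UQCRC2) and 0 lower, with a shift of 0.15 log2 in the median row. A limma fit for induced APE1 over both APE1 lines called 0 members and 0.0% of rows, with 219 rows and 1 member at an unadjusted p under 0.05. That member was ATP5PF, at 0.75 ± 0.34 log2 (limma adjusted p = 1.00), higher in both APE1 lines than in the vector line by response. This fit has 1 residual degree of freedom and subtracts the same vector response from both APE1 lines.

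The genes of these complexes are short, and the ubAPE1 response went with genomic length over the whole array. Their median genomic length was 9.24 kb, against 28.8 kb for kept rows with a length, and 18 of the 29 lay among the shortest 25% of these rows (up to 11.25 kb). SDHA (50.4 kb) and SDHC (48.8 kb) were the longest. The 18 short members had median responses of 0.31, -0.20 and -0.40 log2 in the ubAPE1, wtAPE1 and vector lines, against 0.21, -0.07 and -0.02 for all 2412 rows of that length. Of all rows of that length, 79.0% lay above 0 in the ubAPE1 line, against 15 of the 18 short members, so the sign there was not particular to these genes. Below 0 lay 66.1% of such rows in the wtAPE1 line, against 16 of 18, and 54.7% in the vector line, against 15 of 18. The 11 longer members had median responses of -0.05, -0.05 and -0.03 log2. Spearman's rho between length and response over the 29 members was -0.58, 0.42 and 0.45 in the same order of lines, and -0.41, 0.22 and 0.15 over 9645 rows. These are descriptions across genes, which share their samples and are not independent replicates.

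Of all 2412 short rows, 10.9% had a ubAPE1 response at least 1.5-fold above the vector response, against 11 of the 18 short members (61.1%). For ubAPE1 over wtAPE1 this held for 14.2% of rows and 9 of 18 members. The length trend was removed by subtracting, in each column, the median deviation from the row mean within each of 20 length bins. The members' median responses were then -0.040 log2 in the ubAPE1 line, -0.091 in the wtAPE1 line and -0.18 in the vector line. The count of members higher in the ubAPE1 than in the vector response was then 6 (ATP5F1D, ATP5MC1, ATP5PF, COX6B1, COX7B and COX8A), and 2 (COX5B and UQCRQ) over the wtAPE1 response. SDHC was still lower in both, at -1.48 log2 against wtAPE1.

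**Figure D4:**
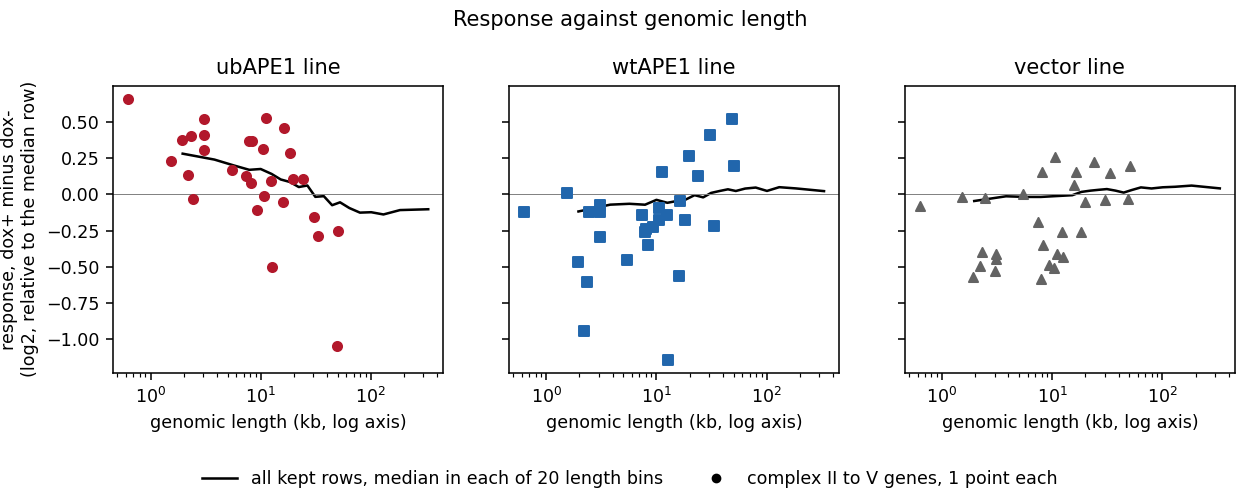
Response to doxycycline (log2, relative to the median row) against genomic length (kb, log axis) in the ubAPE1, wtAPE1 and vector lines. Points are the 29 complex II to V genes and the line is the median of all kept rows in each of 20 length bins, which falls with length in the ubAPE1 line (0.28 in the shortest bin, -0.10 in the longest) and stays near 0 in the vector line, where many short members lie below it.

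Complex I, NADH dehydrogenase, the other entry point of the chain, had 27 genes in the comparison. Their median responses were 0.0098 log2 in the ubAPE1 line, -0.24 in the wtAPE1 line and -0.11 in the vector line, and 0 were called in any fit. NDUFA5 (-0.74) in the ubAPE1 line, NDUFA1 (-0.69) in the wtAPE1 line and NDUFB10 (-0.60) in the vector line were its members past 1.5-fold, all lower. This was 1 of 27 (3.7%) in each line, against 2.75%, 0.482% and 0.516% of all kept rows. The ubAPE1 response exceeded the vector response at least 1.5-fold for 6 of 27 (22.2%), against 4.64% of all rows, and the wtAPE1 response for 6, against 5.78%. With the length trend removed these counts were 2 and 0.

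Of 25 assembly factors of complexes II to V, 0 were called in any fit, and COX20, an assembly factor of complex IV, was past 1.5-fold in the ubAPE1 response (-0.74 log2). COX20 and LYRM7 each had 2 kept rows, and only the row with the higher mean was used for each. Of 17 partners of the chain, CYCS, the cytochrome c that links complexes III and IV, was higher in the wtAPE1 line by 0.56 ± 0.18 log2 (limma adjusted p = 0.0348). VDAC1, a channel of the outer membrane, had a ubAPE1 response of 0.72 log2. Of 11 citric acid cycle genes, IDH3B, a subunit of isocitrate dehydrogenase, was higher in the ubAPE1 line by 0.55 ± 0.18 log2 (limma adjusted p = 0.0418), and DLD, the dihydrolipoamide dehydrogenase, had a ubAPE1 response of -0.59 log2. SDHA and SDHC, which also serve that cycle, lay lower in both APE1 lines, and 0 of the 11 other cycle genes were called lower in either. Over all kept rows, 3.55% were called lower and 1.08% higher in the ubAPE1 line, and 4.03% and 1.62% in the wtAPE1 line. In the ubAPE1 response 1.71% of them were at least 1.5-fold higher and 2.75% lower. For lists this short, 0 or 1 call does not set a list apart from these shares, or complex II apart from the cycle. Of 9 transcription regulators of mitochondrial genes 0 were called in any fit, and the largest responses were those of TFB2M (-0.39 log2 in the ubAPE1 line) and POLRMT (0.36 in the ubAPE1 line and -0.36 in the wtAPE1 line).

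The row filter left out 5 members. One of them, ATP5PB, encodes subunit b of the peripheral stalk of complex V. ATP5PB had deposited levels of 3.99 and 3.78 log2 (dox+, dox-) in the ubAPE1 line, 3.70 and 3.90 for wtAPE1, against 3.97 and 5.01 for the vector. The testis forms COX8C (3.42 to 3.76 log2) and COX6B2 (4.67 to 5.03), the tissue form COX4I2 (4.42 to 4.73) and ATP5MGL, a copy of a membrane subunit gene (3.83 to 4.67), stayed low in all 6 samples. Many of the genes have processed copies that array probes can share, and the gene table lists 4 pseudogenes named after SDHA, 5 after SDHC, 2 after COX7A2, 8 after COX5B, 4 after COX7B and 4 after ATP5PF. How far such copies contributed to a row was not tested.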

How the data were processed

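The values were deposited as log2 levels per array row, 1 column per group, and per the labels the authors averaged triplicates into each column. That the scale is log2 was judged from their range. How probes were summarised and normalized is not given in the sources used here. Build hg 18 is named, per the submitters' processing notes. Gene names came from the platform annotation (12616 rows with 1 symbol, 2031 with several, 845 with none). Genomic lengths and promoters came from RefSeq (GRCh38.p14).

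Each column was centred on its median over the kept rows. Tests used limma 3.58.1 in R 4.3.3 (lmFit, eBayes, Benjamini-Hochberg over 11619 rows, threshold 0.05). The additive fit (line and doxycycline) had 2 residual degrees of freedom, and the moderation gave 1 common spread to all rows (median residual SD 0.15 log2). Lines and doxycycline states stand in for replicates. With 1 common spread, a p-value follows the size of a difference and not its evenness across them. Members, lists and the named-gene rule (the 5 marker genes, members past a test or 1.5-fold in a response, otherwise the 2 largest responses of a complex) were chosen with earlier results of these data known. Alternatives were other row filters, deposited or quantile-normalized values, removal of the length trend, eBayes with trend and robust, no line term, leaving out each line, a 2-fold rule and 1 row per gene.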

Additional observations from a re-analysis of the deposited data

Results flagged for a closer look

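The following responses to doxycycline went opposite ways in the 2 lines set against each other, with a difference of at least 1.5-fold. Both responses also lay more than 0.2072 log2 from 0, the spread of a difference of 2 columns. Opposite responses of which either lay nearer 0, such as those of UQCRQ and COX6A2, are not listed. Each response is the difference of 2 single columns, so these differences were not tested. Against the vector line, the ubAPE1 response was higher by 0.84 log2 for UQCR10 and 0.72 for UQCR11 in complex III. In complex IV it was higher by 0.80 for COX5B, 0.82 for COX6B1, 0.95 for COX7B and 0.94 for COX8A, and in complex V by 0.93 for ATP5F1D, 0.86 for ATP5MC1 and 0.93 for ATP5PF. In each of these 9 the ubAPE1 line was above 0 and the vector line below.

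Against the wtAPE1 line, the ubAPE1 response was higher by 0.72 log2 for UQCR11, 1.002 for COX5B, 0.625 for COX7B, 0.84 for COX8A and 0.70 for ATP5MC1. SDHC ran the other way, at -1.57 log2, with a response of -1.04 in the ubAPE1 line and 0.52 in the wtAPE1 line. With the length trend removed, 8 of the 15 differences were still past 1.5-fold, among them SDHC against wtAPE1 (-1.48 log2) and ATP5PF and COX7B against the vector line (0.75 log2 each).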

How the results depend on the processing

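Of the members called for the common doxycycline effect (1), the count was 0 with values as deposited, quantile normalization, the length trend removed or no line term, and 0 to 2 with a line left out. For the wtAPE1 line (4) it was 1 without a row filter, as deposited and with the length trend removed, SDHA each time. For the ubAPE1 line (2) it was 0 as deposited, and 1 with quantile normalization and with the length trend removed. It stayed 2 without a row filter, but as SDHA and ATP5MGL, a gene below the filter, with SDHC lost. Members past 1.5-fold in the vector response (0) were 3 as deposited and 2 with quantile normalization or no row filter. Under a 2-fold rule the wtAPE1 and ubAPE1 responses (3 and 2) gave 1 each, and the differences of responses gave 0 for wtAPE1 over vector (2), 1 for ubAPE1 over vector (12) and 3 for ubAPE1 over wtAPE1 (11). The first was 4 as deposited and 4 without a row filter, the second 7 with the length trend removed, and the third 6 as deposited and 3 with the length trend removed. The members' median ubAPE1 response turned below 0 as deposited (-0.033 log2) and with the length trend removed (-0.040), as did complex III (-0.11 and -0.13) and, as deposited, complex V (-0.031). Median differences moved to 0.17 for wtAPE1 over vector as deposited (complex III turned to 0.098), to 0.17 for ubAPE1 over vector with the length trend removed, and to 0.12 as deposited and 0.16 with the length trend removed for ubAPE1 over wtAPE1 (complex III turned to -0.021 and -0.043). The causes were not tested. No paired analysis was possible because the labels give no replicate numbers, only 1 averaged column per group. The line term of the additive fit compares dox+ with dox- within each line.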

Other observations

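Of the mitochondrial genome, ND5 and ND6, subunits of complex I that are made inside the organelle, had a row each. ND5 had 3.75 log2 above the median row with and 4.15 without doxycycline in the ubAPE1 line, 4.24 and 3.84 for wtAPE1, against 3.85 and 4.40 for the vector. It was higher with doxycycline in the wtAPE1 line alone. ND6 had 3.01 and 3.15 log2 in the ubAPE1 line, 3.37 and 3.68 for wtAPE1, against 3.07 and 3.40 for the vector, lower with doxycycline in each line. Neither gene passed in any limma fit, and 1 had an unadjusted p under 0.05 between the APE1 lines.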
